A study of Drosophila melanogaster with 15 samples.

Results

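The genes described here are 10 heat shock protein and Hsc70 genes of *Drosophila melanogaster*: *Hsp22*, *Hsp23*, *Hsp26*, *Hsp27*, *Hsp68*, *Hsp83*, *Hsc70-1*, *Hsc70-2*, *Hsc70-3* and *Hsc70-4*. They were taken by symbol from the 16727 genes listed in an RNA-seq count table of ovarian somatic cells (OSCs), a cultured line of somatic cells of the fly ovary, and all 10 were found. Of the 10, 8 passed the filter on low counts, as did 8726 of all genes, while *Hsp22* and *Hsc70-2* did not and were not tested. OSCs were treated by RNAi for 48 h against *l(3)mbt* (L(3)mbt KD), against *lint-O* (Lint-O KD) or against EGFP, a sequence that the cells lack (control), with 3 poly(A)-selected libraries per condition and 9 in all. L(3)mbt is a chromatin protein with malignant brain tumor repeats, and Lint-O, listed in the table as *CG2662*, is its interactor. All 3 conditions shared the OSC background and a medium with serum, insulin and fly extract. The study describes its RNA-seq values in these cells as from 3 biological replicates per condition. Neither it nor the labels say how the cultures were separated.

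Chaperones bind unfolded proteins and keep them from aggregating. Small heat shock proteins hold unfolded clients without using ATP, Hsp70 proteins bind and release them in an ATP cycle driven by J-domain partners, and Hsp90 acts on folded or nearly folded clients such as kinases and hormone receptors. In flies, heat shock genes are switched on under stress by heat shock factor (Hsf), which binds repeated nGAAn units called heat shock elements, whereas the Hsc70 cognates are largely made without stress. The small heat shock genes of chromosome 3L are also known to be made during development and in the ovary, and to respond to the steroid hormone ecdysone in cultured fly cells.

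Each library held between 19139572 and 32274601 reads on genes. Reads on no annotated gene were 2.76 to 8.45% of the reads in the table, with control replicate 3 (2.76%) apart from control replicates 1 and 2 (8.45% and 7.98%). The RNAi targets were lower in their own libraries: *l(3)mbt* averaged 74.8 CPM, a read count scaled to library size, in L(3)mbt KD against 134.4 in control, and *CG2662* averaged 3.59 CPM in Lint-O KD against 21.3 in control. *l(3)mbt* itself rose in Lint-O KD, to 178.4 CPM (log2 0.41, edgeR adjusted p = 0.00031). *CG2662* averaged 24.2 CPM in L(3)mbt KD (log2 0.19, edgeR adjusted p = 0.0348). The 5 OSC markers examined (*tj*, *piwi*, *fs(1)Yb*, *armi* and *Fas3*) were detected in every condition, with a summed level of 3845 to 3917 CPM in L(3)mbt KD, 3693 to 3834 CPM in Lint-O KD and 3632 to 3818 CPM in control. Most of that sum came from *piwi* and *armi*, with means of 1447 and 1589 CPM in control. Of the 5, only *Fas3* passed the test used below, rising 1.85-fold in L(3)mbt KD (edgeR adjusted p = 3.5e-07). Of 7 germline markers, 6 were tested and 5 rose in both knockdowns (*vas*, *nos*, *bam*, *bgcn* and *orb*). The same test called 22.1% of all genes upward in L(3)mbt KD and 16.1% in Lint-O KD. Marker *osk*, also tested, did not pass (log2 -0.22 and -0.40). With 11 and 31 counts summed over control, *nos* and *orb* passed the filter on low counts only through knockdown libraries. Their calls therefore add no support to this count. The 7 markers summed to 425.5 to 484.9 CPM in L(3)mbt KD and 215.6 to 222.7 CPM in Lint-O KD. In control they summed to 16.7 to 17.6 CPM. Most of the knockdown sums came from *vas*, with means of 372.9 and 181.9 CPM. The germline marker *otu* had 2, 0 and 1 counts summed over the libraries of L(3)mbt KD, Lint-O KD and control. The 4 hemocyte markers summed to at most 17.3 CPM and the 3 fat body markers to at most 0.224 CPM in any library. The 5 germline genes that rose thus moved with the same knockdowns as the chaperone genes below, and their part in those results was not tested.

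The promoters of the 3 small heat shock genes tested and of *Hsp68* are printed because these genes rose in both knockdowns. They are the 250 bases before an annotated transcript start, 5′ to 3′ on the gene's strand, from the RefSeq sequence of Release 6 (dm6), the build that the submitters' processing notes name, and they hold no annotated exon bases. Capitals mark matches to 2 facing heat shock units, GAANNTTC or TTCNNGAA where N is any base, or to 3 units in a row, in which a further GAA or TTC follows such a pair in alternating order with NN between. Each search covered both strands, and a match to 3 units also counts as 2 overlapping matches to 2 units.
Hsp23, chr3L:9381632-9381881, plus strand: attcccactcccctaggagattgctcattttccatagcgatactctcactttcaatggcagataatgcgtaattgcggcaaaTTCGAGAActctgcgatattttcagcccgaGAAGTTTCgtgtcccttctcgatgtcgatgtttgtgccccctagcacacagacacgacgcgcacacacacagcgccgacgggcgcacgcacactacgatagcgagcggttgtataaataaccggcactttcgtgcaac
Hsp26, chr3L:9377428-9377677, minus strand: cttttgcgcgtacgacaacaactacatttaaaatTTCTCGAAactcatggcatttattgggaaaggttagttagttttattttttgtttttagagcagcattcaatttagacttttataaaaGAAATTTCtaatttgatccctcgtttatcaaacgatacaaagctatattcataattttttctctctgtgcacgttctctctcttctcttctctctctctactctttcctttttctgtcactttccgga
Hsp27, chr3L:9383813-9384062, plus strand: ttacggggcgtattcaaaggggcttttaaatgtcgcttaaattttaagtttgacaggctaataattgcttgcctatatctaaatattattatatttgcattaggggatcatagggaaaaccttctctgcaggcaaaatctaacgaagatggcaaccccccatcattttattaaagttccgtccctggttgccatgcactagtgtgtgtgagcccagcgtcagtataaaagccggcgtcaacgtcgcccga
Hsp68, chr3R:24057311-24057560, minus strand: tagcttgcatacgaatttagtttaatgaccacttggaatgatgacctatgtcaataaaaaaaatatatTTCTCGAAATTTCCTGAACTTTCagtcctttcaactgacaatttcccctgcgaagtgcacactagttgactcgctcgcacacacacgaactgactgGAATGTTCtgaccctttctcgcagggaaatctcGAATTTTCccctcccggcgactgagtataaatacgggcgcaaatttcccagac

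The *Hsp68* window held 3 overlapping matches to 3 units, which began 182, 177 and 172 bases before the start, and 6 matches to 2 units. A match to 3 units was present in 0.347% of the 19604 transcript starts searched in the same way, and a match to 2 units in 13.2%. The *Hsp23* window held 2 matches to 2 units, beginning 168 and 138 bases before the start, and the *Hsp26* window also held 2, beginning 216 and 128 bases before it. The *Hsp27* window held none, which says only that these letters are absent from it. Over all 22 annotated starts of the 10 members, 11 had a match to 2 units and 3 had a match to 3 units. Starts of 1 gene can share a match where their windows overlap, as in *Hsp26* and *Hsc70-4*. Counted by gene, 7 of the 10 members had a match to 2 units at some start, beside 16.9% of protein-coding genes. For 3 units it was 2 members, beside 0.473%. The other starts with 3 units were a pair of internal starts of *Hsc70-4*, whose windows overlap each other and lie within the gene. *Hsc70-1*, which also rose in both knockdowns, had 0 matches at its starts. *Hsp83*, *Hsc70-3* and *Hsc70-4*, none of them called upward, each had a match to 2 units at some start. A link between the matches and the fold changes was not tested.

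The levels of the 9 members other than *Hsp22*, whose level could not be read from this table for the reason given with that gene, spanned a wide range, and their order was the same in all 3 conditions. On the FPKM scale, which divides the counts by exon length so that genes can be compared, *Hsc70-4*, the main cytosolic Hsc70, was the highest, at 1942 ± 85.3 in L(3)mbt KD, 1892 ± 109 in Lint-O KD and 1993 ± 98.5 in control (SD, n = 3 each). *Hsp83*, the fly Hsp90, followed at 1153 ± 79.3 FPKM in L(3)mbt KD, 1011 ± 29.1 FPKM in Lint-O KD and 1003 ± 22.5 FPKM in control. *Hsc70-3*, the BiP chaperone of the endoplasmic reticulum, stood at 293.4, 270.2 and 312.6 mean FPKM in L(3)mbt KD, Lint-O KD and control. These 3 genes supplied 94.1 to 96.6% of the counts of the 10 members in every library.

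The small heat shock genes came next. In control, *Hsp26* averaged 156.6 ± 1.12 FPKM, *Hsp23* 79.3 ± 6.73 FPKM and *Hsp27* 56.8 ± 4.71 FPKM (SD, n = 3 each), and their control libraries did not overlap. *Hsp68*, a stress-inducible Hsp70, averaged 13.8 ± 1.63 FPKM in control. *Hsc70-1* and *Hsc70-2* were the lowest, with few or 0 counts in a library. Within each condition, neighbours in this order of 9 did not overlap between libraries. The order did not change for any member when the longest single transcript was used as the length. The 10 genes together took 0.936 to 1.09% of the reads on genes of a library.

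**Figure D1:**
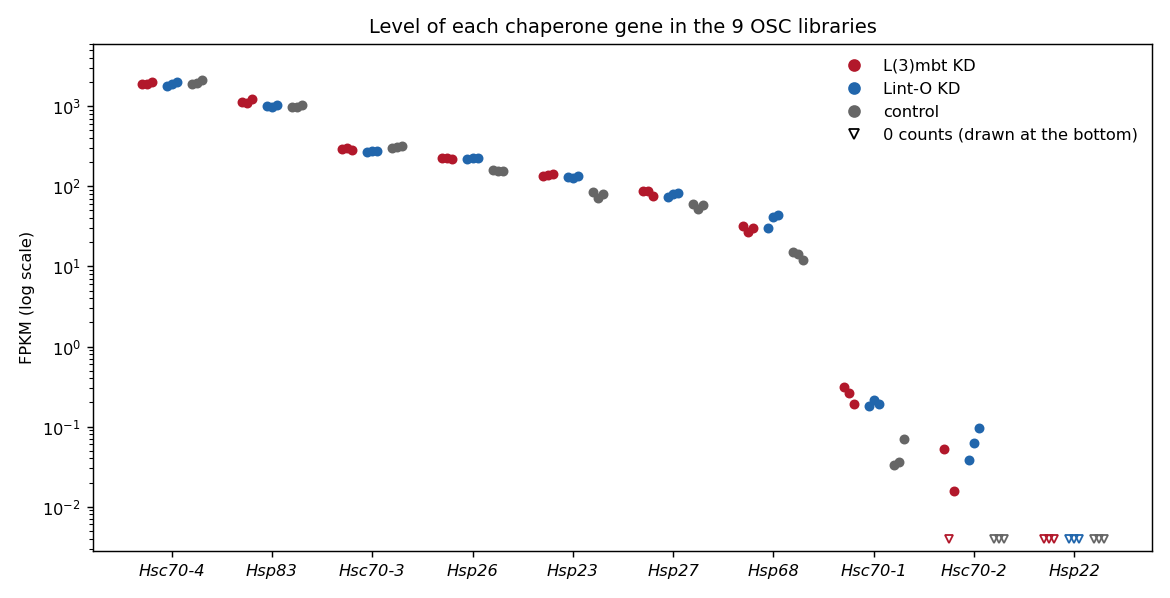
Level of the 10 members in each of the 9 libraries, in FPKM on a log scale; each point is 1 library, coloured by condition, and open triangles at the bottom stand for 0 counts. *Hsc70-4* and *Hsp83* lie above the other 8 genes in every library, and *Hsp22* had 0 counts in all 9.

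The question put to these genes was whether loss of L(3)mbt or of Lint-O changed their transcript levels. In L(3)mbt KD against control, 5 of the 8 members tested rose (*Hsp23*, *Hsp26*, *Hsp27*, *Hsp68* and *Hsc70-1*) and 0 fell, at an adjusted p below 0.01 in edgeR's quasi-likelihood test over all genes. The same test called 22.1% of all genes tested upward and 14.9% downward in that comparison. At an unadjusted p below 0.05, 6 members were higher and 0 lower in L(3)mbt KD, and DESeq2 also called 6 and 0. In Lint-O KD against control, the same 5 members rose and 1 fell (*Hsc70-3*), where 16.1% of all genes rose and 6.85% fell. In control, *Hsc70-1* had 0.0909 to 0.192 CPM, and it passed the filter on low counts only through the knockdown libraries. Its upward calls therefore add no support to these counts, or to the median fold changes and counts without overlap given next. The comparisons with control share the control libraries. The median log2 fold change of the 8 members tested was 0.54 in L(3)mbt KD and 0.50 in Lint-O KD, beside -0.02 and 0.01 over all genes. In bulk RNA, a change in the number of cells of a type and a change in RNA per cell cannot be told apart.

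The libraries of L(3)mbt KD lay wholly above those of control for 6 of the 8 members and wholly below for 1, where 30% and 26.8% of all genes did so. For Lint-O KD against control the counts were 5 above and 1 below, beside 26.6% and 20.5% of all genes. With 3 libraries against 3, an exact permutation test of a single gene cannot give a two-sided p below 0.1, so the tests rest on the spread that edgeR estimates across all genes.

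**Figure D2:**
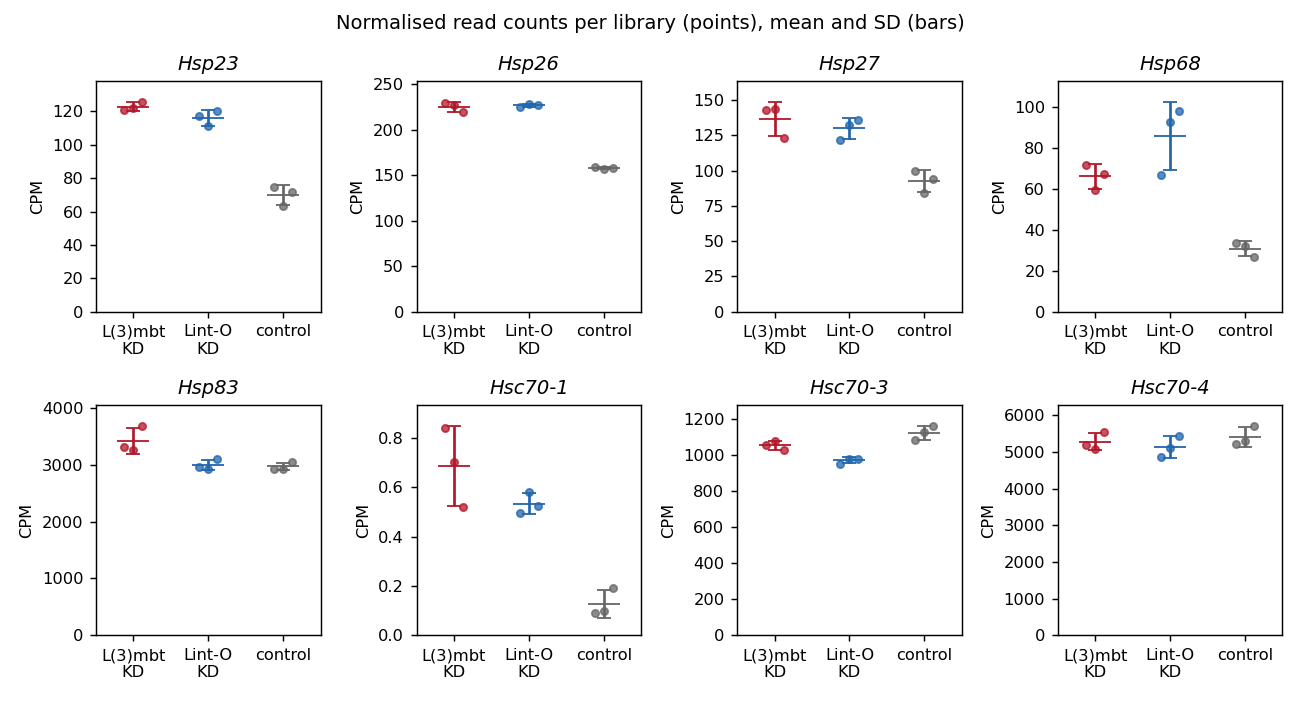
Normalised read counts (CPM, from 0) of the 8 members tested, with 1 point per library and bars for the mean and SD of 3 libraries in L(3)mbt KD, Lint-O KD and control. All 6 knockdown libraries lie above the control libraries for *Hsp23*, *Hsp26*, *Hsp27*, *Hsp68* and *Hsc70-1*, and below them for *Hsc70-3*.

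*Hsp23* encodes a cytosolic small heat shock protein and lies at chr3L:9381882-9382765 on the plus strand. It had 120.6, 122.2 and 125.6 CPM in L(3)mbt KD, 117.1, 111.1 and 120.5 CPM in Lint-O KD, and 74.9, 63.5 and 72.0 CPM in control. The 6 knockdown libraries were close to each other and all were far above control. The fold change was 1.75 in L(3)mbt KD (log2 0.81 ± 0.06 SE, edgeR adjusted p = 6.09e-08) and 1.66 in Lint-O KD (log2 0.73 ± 0.06 SE, edgeR adjusted p = 3.36e-07).

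*Hsp26*, which encodes another cytosolic small heat shock protein, lies on the minus strand at chr3L:9376418-9377427. Its levels were 229.6, 227.2 and 219.6 CPM in L(3)mbt KD, 224.7, 228.4 and 227.6 CPM in Lint-O KD, and 159.4, 157.3 and 157.7 CPM in control. The knockdown libraries overlapped each other and did not overlap control, and the spread within a condition was at most 2.32% of its mean. *Hsp26* was 1.43-fold higher in L(3)mbt KD (log2 0.51 ± 0.05 SE, edgeR adjusted p = 2.71e-07) and 1.43-fold higher in Lint-O KD (log2 0.52 ± 0.05 SE, edgeR adjusted p = 3.7e-07).

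*Hsp27* encodes a small heat shock protein of the nucleus and lies at chr3L:9384063-9385694 on the plus strand. It had 143.2, 143.8 and 122.8 CPM in L(3)mbt KD, 121.4, 132.6 and 135.8 CPM in Lint-O KD, and 99.4, 84.3 and 94.4 CPM in control. L(3)mbt KD replicate 3 was the lowest of its condition and still above all control libraries. The fold change was 1.47 in L(3)mbt KD (log2 0.56 ± 0.08 SE, edgeR adjusted p = 2.35e-05) and 1.40 in Lint-O KD (log2 0.49 ± 0.08 SE, edgeR adjusted p = 0.000152).

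*Hsp22*, the small heat shock protein of the mitochondrial matrix, lies at chr3L:9372931-9374964 on the plus strand and had 0 counts in all 9 libraries. All 1900 of its exon bases are shared on the same strand with *Hsp67Bb*, named CG4456 in RefSeq, so a counter that drops ambiguous reads can assign none to *Hsp22* alone. For *Hsp67Bb*, 90.1% of its 2109 exon bases are shared with *Hsp22*, and its counts summed to 19 in L(3)mbt KD, 9 in Lint-O KD and 5 in control. The level of *Hsp22* therefore could not be read from this table, and the 0 says nothing about whether it was transcribed.

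The small heat shock genes sit side by side on chromosome 3L together with *Hsp67Ba*, *Hsp67Bb*, *Hsp67Bc* and *CG4461*. Of these 8 genes, grouped here as the heat shock genes of the cluster, 5 were tested, and all 5 rose in L(3)mbt KD and in Lint-O KD, where 22.1% and 16.1% of all genes rose. *Hsp67Bb*, placed in this group by its name, was not tested. Of the 5, 3 are members already counted above. Among the 11 other genes that lie in or within 15 kb of the cluster, 10 were tested, of which 2 rose and 2 fell in L(3)mbt KD (edgeR, with 5 at an unadjusted p below 0.05 and 5 called by DESeq2) and 0 changed in Lint-O KD (edgeR, with 3 at an unadjusted p below 0.05 and 1 called by DESeq2). Over all genes, 22.1% rose and 14.9% fell in L(3)mbt KD, and 16.1% rose and 6.85% fell in Lint-O KD. Those 4 genes of L(3)mbt KD were named after their values were seen. They were *Klp67A*, a kinesin gene (log2 0.30, edgeR adjusted p = 0.000169), *CR43481*, a noncoding gene antisense to *Hsp67Ba* (log2 0.95, edgeR adjusted p = 0.0083), *CG32039* (log2 -0.47, edgeR adjusted p = 0.000779) and *Fdxh* (log2 -0.59, edgeR adjusted p = 5.67e-05).

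*Hsp67Bc*, whose product takes part in autophagy of unfolded proteins, had the largest fold changes of the cluster genes tested. It had 9.14, 10.4 and 8.50 CPM in L(3)mbt KD, 3.35, 3.76 and 4.53 CPM in Lint-O KD, and 0.728, 1.36 and 1.31 CPM in control. The 3 conditions did not overlap. The log2 fold change was 3.02 ± 0.20 SE in L(3)mbt KD (edgeR adjusted p = 6.49e-09) and 1.74 ± 0.22 SE in Lint-O KD (edgeR adjusted p = 1.57e-05), and L(3)mbt KD exceeded Lint-O KD by 1.28 ± 0.17 SE (edgeR adjusted p = 6.27e-05). *Hsp67Ba* was 1.37-fold higher in L(3)mbt KD and 1.38-fold higher in Lint-O KD (edgeR adjusted p = 1.05e-05 and 1.45e-05), but 1316 of its exon bases are shared with the antisense *CR43481*, and the strand setting of the counting is not given in the sources used here.

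**Figure D3:**
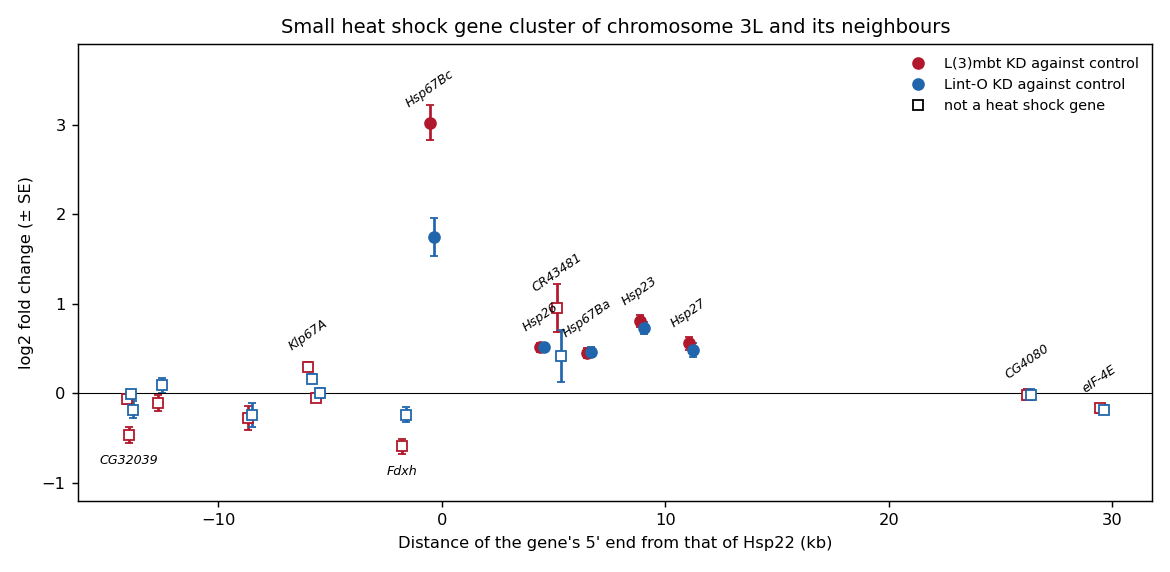
Log2 fold change against control (± SE) of each gene tested in and around the small heat shock cluster, by the distance in kb of its 5′ end from that of *Hsp22*; filled circles are heat shock genes and open squares are other genes. All 5 heat shock genes lie above 0 in both knockdowns, led by *Hsp67Bc* at 3.02 in L(3)mbt KD.

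*Hsp68*, an inducible member of the Hsp70 family, lies on the minus strand at chr3R:24055080-24057310. It had 71.5, 59.5 and 67.2 CPM in L(3)mbt KD, 66.8, 92.3 and 98.0 CPM in Lint-O KD, and 33.5, 32.1 and 26.6 CPM in control. All knockdown libraries were above control, and Lint-O KD replicate 1 was lower than the other two of its condition and fell within the range of L(3)mbt KD. The fold change was 2.16 in L(3)mbt KD (log2 1.11 ± 0.13 SE, edgeR adjusted p = 4.13e-06) and 2.79 in Lint-O KD (log2 1.48 ± 0.13 SE, edgeR adjusted p = 2.87e-07). L(3)mbt KD against Lint-O KD gave a log2 difference of -0.37 (95% interval -0.63 to -0.11, edgeR adjusted p = 0.0361), which did not pass the threshold. Without Lint-O KD replicate 1 it was -0.53 and passed (edgeR adjusted p = 0.00196), as it also did without a filter on low counts (log2 -0.38, edgeR adjusted p = 0.000463).

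The inducible *Hsp70* genes, which are near-identical copies, are the closest relatives of *Hsp68* in the list of other chaperones. Reads of such copies can be split or dropped by the counting, so the single genes are uncertain. Summed over the 6 copies listed, the counts were 55, 36 and 62 in L(3)mbt KD, 37, 58 and 38 in Lint-O KD, and 25, 13 and 16 in control. The 3 libraries of each knockdown were above those of control, and the ratio to control, scaled to library size as for CPM, was 2.69 in L(3)mbt KD (95% interval 1.96 to 3.74) and 2.77 in Lint-O KD (2.01 to 3.88). These exact intervals cover counting error only.

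Of the single copies, *Hsp70Aa* and *Hsp70Ab* had 0 counts in all 9 libraries and *Hsp70Bbb* had 4 counts in all. *Hsp70Bc* rose in L(3)mbt KD (19, 16 and 27 counts against 4, 0 and 3 in control, log2 3.00, edgeR adjusted p = 0.000308) and missed the threshold in Lint-O KD (7, 13 and 9 counts, log2 2.17, edgeR adjusted p = 0.0137, or 0.00985 and past it with robust dispersions). *Hsp70Bc* and *Hsp70Ba*, each with 7 counts summed over control, passed the filter on low counts only through knockdown libraries. *Hsp70Ba* and *Hsp70Bb* passed in neither, the log2 fold change of *Hsp70Ba* being 1.38 in L(3)mbt KD and 2.26 in Lint-O KD, and that of *Hsp70Bb* 0.64 and 1.01 (edgeR adjusted p of 0.0309 or more).

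*Hsp83*, which encodes Hsp90 and lies at chr3L:3192969-3197059 on the plus strand, did not pass the threshold in either knockdown. It had 3307, 3252 and 3683 CPM in L(3)mbt KD, 2954, 2931 and 3090 CPM in Lint-O KD, and 2929, 2930 and 3045 CPM in control. The L(3)mbt KD libraries were above all others, and those of Lint-O KD and control overlapped. Its log2 fold change in L(3)mbt KD was 0.20 ± 0.06 SE, at an edgeR adjusted p of 0.0103, just above the threshold of 0.01. This call depended on the settings: 8 of 15 alternatives put it past the threshold, among them DESeq2 (adjusted p = 0.000613), library totals alone (edgeR adjusted p = 0.00108), robust dispersions (edgeR adjusted p = 0.00678) and leaving out L(3)mbt KD replicate 2 (edgeR adjusted p = 0.00877), and the adjusted p over all 15 ranged between 0.000613 and 0.0558. In Lint-O KD the log2 fold change was 0.01 (95% interval -0.11 to 0.14, edgeR adjusted p = 0.903).

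The abundant Hsc70 cognates had small fold changes. *Hsc70-4* (chr3R:15242687-15246614, plus strand), whose product also uncoats clathrin vesicles, had 5196, 5090 and 5534 CPM in L(3)mbt KD, 4857, 5112 and 5446 CPM in Lint-O KD, and 5218, 5300 and 5717 CPM in control. The 3 conditions overlapped. Its log2 fold change was -0.04 in L(3)mbt KD (95% interval -0.17 to 0.10, edgeR adjusted p = 0.641) and -0.07 in Lint-O KD (95% interval -0.21 to 0.06, edgeR adjusted p = 0.383).

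*Hsc70-3* (chrX:11801696-11807117, minus strand), which encodes BiP, had 1055, 1076 and 1028 CPM in L(3)mbt KD, 951.6, 979.0 and 979.0 CPM in Lint-O KD, and 1082, 1125 and 1159 CPM in control. The 3 conditions did not overlap, with Lint-O KD the lowest and control the highest. It fell in Lint-O KD (0.864-fold, log2 -0.21 ± 0.05 SE, edgeR adjusted p = 0.00393) and did not pass in L(3)mbt KD (log2 -0.09 ± 0.05 SE, edgeR adjusted p = 0.134). The call in Lint-O KD was lost when any of the 3 Lint-O KD libraries was left out (edgeR adjusted p = 0.0179, 0.0161 and 0.0121 without replicates 1, 2 and 3).

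*Hsc70-1* (chr3L:13974061-13977761, plus strand), an Hsp70 family member made at low level in these cells, had 22, 16 and 15 counts in L(3)mbt KD, 12, 13 and 10 counts in Lint-O KD, and 2, 2 and 6 counts in control. Every knockdown library was above every control library, and the control libraries averaged 0.0466 FPKM. It rose in L(3)mbt KD (log2 2.30 ± 0.44 SE, edgeR adjusted p = 0.000486) and in Lint-O KD (log2 1.95 ± 0.48 SE, edgeR adjusted p = 0.00469). The ratio of its summed counts to control, scaled to library size as for CPM, was 5.03 in L(3)mbt KD (95% counting interval 2.53 to 11.1) and 3.94 in Lint-O KD (1.91 to 8.92). The Lint-O KD call was lost without control replicates 1 or 2 and without any one of the Lint-O KD libraries, at edgeR adjusted p between 0.0119 and 0.0216.

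*Hsc70-2* (chr3R:13044759-13047388, plus strand), another Hsp70 family member, had 3, 0 and 1 counts in L(3)mbt KD, 2, 3 and 4 counts in Lint-O KD, and 0 counts in all control libraries. At this depth, 3 counts in a library correspond to 0.0958 to 0.158 CPM, so no fold change is given. It was not tested, and with no filter on low counts it passed in neither knockdown (edgeR adjusted p = 0.17 in L(3)mbt KD and 0.0348 in Lint-O KD).

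**Figure D4:**
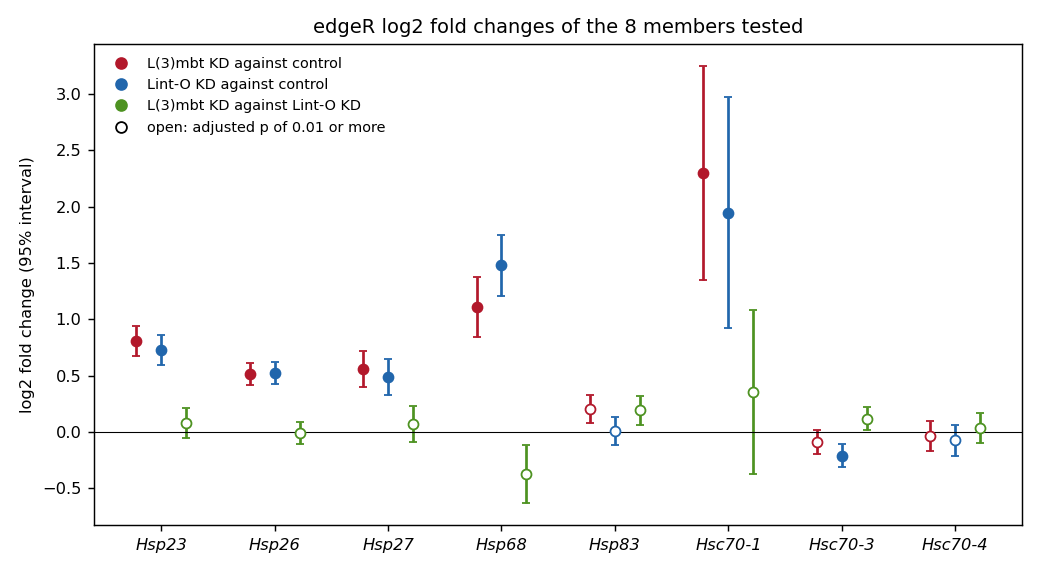
Log2 fold change and 95% interval of the 8 members tested, for each knockdown relative to control and for the difference between the knockdowns (L(3)mbt KD minus Lint-O KD); filled points passed an adjusted p of 0.01. The intervals of the difference between the knockdowns are drawn in green, and none of these 8 points is filled.

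Set directly against each other, L(3)mbt KD and Lint-O KD differed in none of the 8 members at an adjusted p below 0.01 in edgeR, where 8.42% of all genes were higher in L(3)mbt KD and 5.6% lower. Since depletion of L(3)mbt also lowers Lint-O protein in the study, this likeness is not agreement between independent losses. At an unadjusted p below 0.05, 3 members differed (*Hsp68*, *Hsp83* and *Hsc70-3*), and DESeq2 called 1 (*Hsp83*, log2 0.21, adjusted p = 0.00159). The libraries of L(3)mbt KD lay wholly above those of Lint-O KD for 3 members (*Hsp23*, *Hsp83* and *Hsc70-3*) and wholly below for 0, beside 22% and 20.4% of all genes. For *Hsp26* the log2 difference was -0.01 (95% interval -0.11 to 0.09), for *Hsp23* 0.08 (-0.05 to 0.21) and for *Hsp27* 0.07 (-0.09 to 0.23). For *Hsp83* it was 0.19 (95% interval 0.07 to 0.32, edgeR adjusted p = 0.0272) and for *Hsc70-3* 0.12 (0.01 to 0.22, edgeR adjusted p = 0.0922), while that of *Hsc70-1* was wide (0.35, -0.38 to 1.08).

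The wider chaperone network was followed with lists of 85 other heat shock and chaperone genes, of which 74 were tested. In L(3)mbt KD, 13 of them rose and 11 fell, and in Lint-O KD 4 rose and 12 fell, with a median log2 fold change of -0.03 and -0.08. As shares of the 74, these were 17.6% up and 14.9% down in L(3)mbt KD, beside 22.1% and 14.9% of all genes. In Lint-O KD the shares were 5.41% up and 16.2% down, beside 16.1% and 6.85%.

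Of 8 other genes listed as small heat shock protein genes, *Hsp67Bb* by its name, 4 were tested, of which 4 rose in L(3)mbt KD and 3 in Lint-O KD, where 22.1% and 16.1% of all genes rose. Among these 4 are *Hsp67Ba* and *Hsp67Bc*, already counted with the cluster, and *l(2)efl* and *CG14207* lie outside it. *l(2)efl*, the fly relative of crystallin, had 58, 43 and 68 counts in L(3)mbt KD, 44, 28 and 34 counts in Lint-O KD, and 2, 2 and 0 counts in control. The ratio to control, scaled to library size as for CPM, was 40.1 in L(3)mbt KD (95% counting interval 15.4 to 149, edgeR adjusted p = 2.41e-07) and 29.8 in Lint-O KD (11.3 to 112, edgeR adjusted p = 2.06e-06). With so few counts in control, *l(2)efl* passed the filter on low counts only through the knockdown libraries. Its upward calls therefore add no support to the counts of this list that rose. *CG14207*, another small heat shock protein gene, rose in L(3)mbt KD (log2 0.64, edgeR adjusted p = 3.2e-07) and did not pass in Lint-O KD (log2 0.13, edgeR adjusted p = 0.0895), and L(3)mbt KD exceeded Lint-O KD by 0.51 (edgeR adjusted p = 2.16e-05).

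Of 4 regulators and RNAs of the heat shock response tested, 2 rose in L(3)mbt KD and 1 in Lint-O KD. These are 50% and 25% of the list, beside 22.1% and 16.1% of all genes. *Hsf* averaged 208.3 CPM in L(3)mbt KD, 206.0 CPM in Lint-O KD and 175.5 CPM in control, and it rose in both (log2 0.25, edgeR adjusted p = 0.000802, and log2 0.23, edgeR adjusted p = 0.00222). *DnaJ-1*, the fly Hsp40, rose in L(3)mbt KD (log2 0.31, edgeR adjusted p = 0.000129) and had a log2 fold change of 0.12 in Lint-O KD (edgeR adjusted p = 0.0837). The stress RNA *Hsromega* and the BAG-domain co-chaperone gene *stv* passed in neither, the log2 fold change of *Hsromega* being -0.19 in L(3)mbt KD and -0.15 in Lint-O KD, and that of *stv* -0.16 in each.

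The partners of the Hsp70 proteins that passed went in both directions in L(3)mbt KD, and those that passed in Lint-O KD fell. Of 16 J-domain co-chaperones tested, 4 rose and 5 fell in L(3)mbt KD (25% and 31.2%, beside 22.1% and 14.9% of all genes), among them *jdp* (log2 1.46, edgeR adjusted p = 8.66e-07), *mrj* (log2 0.33, edgeR adjusted p = 0.0022), *CG7130* (log2 -0.43, edgeR adjusted p = 0.000139), *CG3061* (log2 -0.32, edgeR adjusted p = 0.000354) and *CG8531* (log2 -0.31, edgeR adjusted p = 9.79e-05). In Lint-O KD 0 rose (4 at an unadjusted p below 0.05, and 0 in DESeq2) and 3 fell (18.8%, beside 6.85% of all genes), *CG2790*, *CG10565* and *CG8531*, by 0.29, 0.26 and 0.25 on the log2 scale (edgeR adjusted p of 0.00214 or less). Among the 4 other Hsp70 and Hsp110 genes, 0 changed in L(3)mbt KD (1 at an unadjusted p below 0.05 and 1 in DESeq2, both downward) and 2 fell in Lint-O KD, *CG7182* (log2 -0.25, edgeR adjusted p = 0.000696) and the mitochondrial *Hsc70-5* (log2 -0.19, edgeR adjusted p = 0.00472), while *Hsc70Cb*, the Hsp110 gene, had log2 fold changes of -0.04 and -0.13 that did not pass. Of 8 nucleotide exchange factors and Hsp70 partners, 0 changed in L(3)mbt KD (4 downward at an unadjusted p below 0.05, and 0 in DESeq2) and 2 fell in Lint-O KD, *HIP* (log2 -0.30, edgeR adjusted p = 0.00312) and *Roe1* (log2 -0.20, edgeR adjusted p = 0.00924). These 2 are 25% of their list, and the 2 of the Hsp70 and Hsp110 list are 50% of it, beside 6.85% of all genes.

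The Hsp90 family and its co-chaperones, 13 genes tested, showed 1 gene that rose and 2 that fell in L(3)mbt KD, namely *Dpit47* (log2 0.21), *nudC* (log2 -0.26) and *shu* (log2 -0.25), the last a co-chaperone of the piRNA pathway. As shares these were 7.69% up and 15.4% down, beside 22.1% and 14.9% of all genes. In Lint-O KD 0 rose, also at an unadjusted p below 0.05 and in DESeq2, and 2 fell, *Sgt* (log2 -0.26, edgeR adjusted p = 0.000981) and *nudC* (log2 -0.23, edgeR adjusted p = 0.00516). The 2 that fell are 15.4% of the list, where 16.1% of all genes rose and 6.85% fell. *Hop*, which links Hsp70 to Hsp90, and *Gp93*, the Hsp90 of the endoplasmic reticulum, passed in neither, the log2 fold change of *Hop* being -0.02 in L(3)mbt KD and -0.12 in Lint-O KD, and that of *Gp93* 0.17 and 0.00.

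Of 3 mitochondrial chaperonin genes tested, 1 fell in L(3)mbt KD, *Hsp60C* (log2 -1.57, edgeR adjusted p = 0.00011), and 2 fell in Lint-O KD, *CG11267* and *Hsp60* (log2 -0.26 and -0.20). These are 33.3% and 66.7% of this short list, beside 14.9% and 6.85% of all genes. Of the 8 cytosolic chaperonin subunit genes, *Tcp-1zeta* rose in L(3)mbt KD (log2 0.23, edgeR adjusted p = 0.00422), and 0 passed in Lint-O KD, also at an unadjusted p below 0.05 and in DESeq2. The share that rose in L(3)mbt KD was 12.5%, beside 22.1% of all genes. Of 15 genes of endoplasmic reticulum folding and the unfolded protein response, 1 rose and 3 fell in L(3)mbt KD, and 1 fell in Lint-O KD. In L(3)mbt KD that is 6.67% up and 20% down, beside 22.1% and 14.9% of all genes. In Lint-O KD it is 6.67% down, beside 6.85% of all genes. The shares that fell are thus near those of all genes. *Ire1*, the sensor kinase of that response, fell in both (log2 -0.50 in L(3)mbt KD, edgeR adjusted p = 6.32e-07, and -0.27 in Lint-O KD, edgeR adjusted p = 0.000596), *PEK* and *Ero1L* fell in L(3)mbt KD (log2 -0.27 and -0.31), and *Cnx99A*, or calnexin, rose there (log2 0.24).

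**Figure D5:**
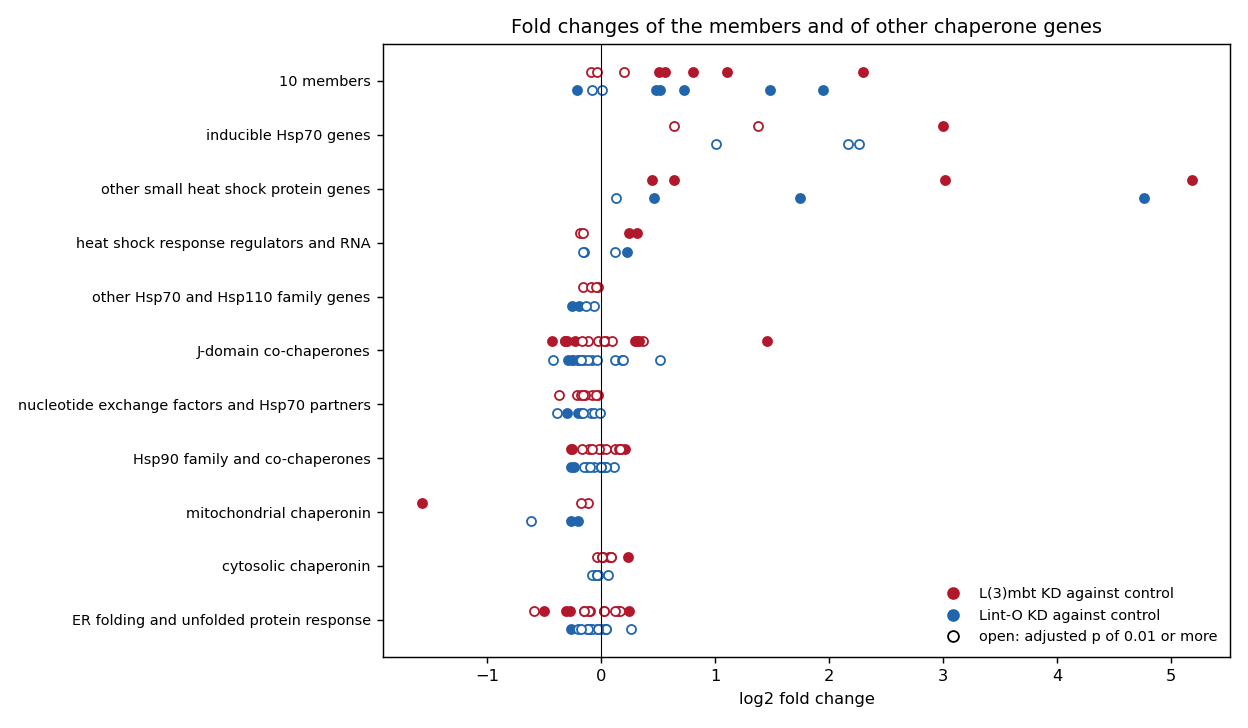
Log2 fold change against control of each gene tested in the members and in 10 lists of other chaperone genes, with L(3)mbt KD above Lint-O KD in each list; filled points passed an adjusted p of 0.01. The small heat shock and inducible *Hsp70* genes that were tested lie right of 0, and most points of the other lists lie near 0. *l(2)efl*, *Hsp70Ba* and *Hsp70Bc* passed the filter on low counts only through knockdown libraries. Their place right of 0 therefore adds no support.

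Since the small heat shock genes are known to respond to ecdysone in cultured cells, 17 ecdysone-responsive genes were also listed, and 12 of them were tested. In L(3)mbt KD 2 rose and 1 fell (16.7% and 8.33%, beside 22.1% and 14.9% of all genes), and in Lint-O KD 0 rose (2 at an unadjusted p below 0.05, and 0 in DESeq2) and 1 fell (8.33%, beside 6.85%). The 3 genes that passed are named here after their values were seen. *E23*, an ABC transporter gene, fell in both knockdowns (log2 -0.76 in L(3)mbt KD, edgeR adjusted p = 1.04e-06, and -0.35 in Lint-O KD, edgeR adjusted p = 0.00228). The transcription factor gene *br* and the nuclear receptor gene *Eip75B* rose in L(3)mbt KD (log2 0.31, edgeR adjusted p = 0.00161, and log2 0.30, edgeR adjusted p = 0.00928) and had log2 fold changes of 0.24 and 0.13 in Lint-O KD that did not pass (edgeR adjusted p = 0.0157 and 0.264). The receptor gene *EcR* had log2 fold changes of -0.05 in L(3)mbt KD and -0.01 in Lint-O KD (edgeR adjusted p = 0.674 and 0.953), and its partner *usp* -0.06 and -0.09 (edgeR adjusted p = 0.434 and 0.25).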

How the data were processed

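RNA was measured by poly(A) RNA-seq in 9 OSC libraries. The values the authors deposited are raw read counts for each gene, and the submitters' processing notes name HISAT2, HTSeq and dm6. The annotation and strand setting are not given in the sources used here. Reads on no feature (2.76 to 8.45% of a library) and ambiguous reads (1.48 to 1.61%) were kept out of library sizes. Counts were scaled by TMM, filtered with filterByExpr and fitted over all 9 libraries with edgeR 4.0.16 (glmQLFit and glmQLFTest, R 4.3.3), with Benjamini-Hochberg adjustment over 8726 genes and a threshold of 0.01, the false discovery rate of the study. DESeq2 1.42.0 and other settings were alternatives. FPKM used merged exon lengths from RefSeq, which matched 16480 of the 16727 genes.

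The dispersions were estimated with edgeR's defaults. Robust estimation was looked into after the default results had been seen, among 8 fits tried to match the gene counts of an earlier analysis of these data, which varied the library sizes, robustness and the estimation routine. It is given as an alternative because it changes the *Hsp83* and *Hsp70Bc* calls. The members and lists were chosen with earlier results of these data known. From each list of other chaperones, the text names at most 3 in each direction, ranked by fold change among those past the threshold with at least 10 counts on average and no overlap between conditions, besides the members and a fixed set of relatives. Cell type markers and ecdysone-responsive genes fall outside this rule, and the ones named were chosen after their values were seen. On simulated data, edgeR recovered 86.9% of 198 genes changed 2-fold, with 6 false calls, among 8621 genes in L(3)mbt KD against control. The simulated counts were drawn with edgeR's own fitted dispersions, and all other genes were left unchanged. These figures therefore do not cover smaller changes, or a comparison in which many genes move. ChIP-seq samples were not analysed here.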

Additional observations from a re-analysis of the deposited data

How the results depend on the processing

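The calls of *Hsp23*, *Hsp26*, *Hsp27* and *Hsp68* in both knockdowns held under every alternative. *Hsc70-1* was called upward in L(3)mbt KD under every alternative that gave a value. Requiring a minimum count in every library dropped this gene, which passed the main filter on low counts only through knockdown libraries. The calls of *Hsc70-1* therefore add no support here either. The count of members higher in L(3)mbt KD than in Lint-O KD was 1 with DESeq2, library totals alone, the replicate block or an FDR of 0.05, and the count lower was 1 with no filter on low counts or an FDR of 0.05. With an FDR of 0.05, 2043 genes fell in L(3)mbt KD and 1153 in Lint-O KD against control, and 1214 were higher and 1029 lower in L(3)mbt KD than in Lint-O KD; with no filter on low counts, 828 were lower.

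Leaving out 1 library at a time gave 5 to 6 members that rose in L(3)mbt KD, 4 to 5 that rose and 0 to 1 that fell in Lint-O KD, and 0 to 1 lower in L(3)mbt KD than in Lint-O KD. Over all genes it gave 313 to 626 that fell in Lint-O KD, 481 to 643 higher and 241 to 407 lower in L(3)mbt KD than in Lint-O KD. The fewest fell without Lint-O KD replicate 2 (313) and the fewest were lower without L(3)mbt KD replicate 1 (241).

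Changes of sign were met only for values close to 0. *Hsp26* in L(3)mbt KD against Lint-O KD was 0.005566 with DESeq2, 0.005695 with its size factors, 0.01385 with library totals alone, 0.003255 with a minimum of 10 counts, and lay between -0.02262 and 0.007416 with 1 library left out. *Hsp83* in Lint-O KD was -0.0153 with no filter, and between -0.02006 and 0.02528 with 1 library left out. *Hsc70-4* was 0.01767 in L(3)mbt KD with library totals alone, and between -0.002928 and 0.08042 in L(3)mbt KD against Lint-O KD with 1 library left out. The cause was not tested for any of these.

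Same-numbered libraries did not deviate together in all comparisons (correlations of -0.21 to -0.126 between L(3)mbt KD and control, 0.0914 to 0.262 between Lint-O KD and control, and 0.0131 to 0.105 between the knockdowns). Each of the 3 Lint-O KD libraries correlated best with the control library of its own number, while 0 of the L(3)mbt KD libraries did. Whether libraries of the same number were prepared together is not given and was not tested. With the replicate number as a block, *Hsp83* passed in L(3)mbt KD (log2 0.20, edgeR adjusted p = 0.000869) and against Lint-O KD (log2 0.19, edgeR adjusted p = 0.00343), and *Hsc70-1* was lost in Lint-O KD (log2 1.93, edgeR adjusted p = 0.012). With the longest transcript as the length, *Hsc70-4* was at 2227, 2170 and 2285 FPKM in L(3)mbt KD, Lint-O KD and control, and *Hsc70-3* at 330.6, 304.5 and 352.3 FPKM. Depth limits *Hsc70-1*, *Hsc70-2* and the inducible *Hsp70* genes, which had few counts.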
